A study of Mus musculus with 45 samples.

Results

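The genes described here build and regulate the actin filaments of contractile cells: the smooth-muscle actins Acta2 and Actg2, the actin-binding proteins Tagln, Cnn1 and Cnn2, the myosin light chain Myl9, the tropomyosins Tpm1, Tpm2 and Tpm4, and the actin-monomer binder Tmsb4x. They were chosen by name, with earlier results of these data known, so their counts set beside all genes describe the set and do not test it. All 10 of the 10 names were found among the 23575 genes of the deposited gene table. All 233 deposited transcripts of Tpm1 were followed as well, among 276608 transcripts in all. The study sequenced full-length cDNA on nanopores while mouse neural progenitor cells (NPCs) were turned into induced pluripotent stem cells.

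The 45 libraries came from 2 chemistries, which were compared only within a chemistry or, for 2i-LIF, within pairs of 1 chemistry. In the 22 R9 libraries, cDNA of poly(A)-selected RNA was sequenced directly; in the 23 R10 libraries, total RNA was turned into cDNA and amplified by PCR. The progenitors were derived from Oct4-GFP (O4G) embryonic stem cells, which are R1 cells with a GFP reporter driven by the Oct4 promoter. The OKMS and OKS lines carried the stably transfected constructs OKMS-Luciferase-AS or OKS-Luciferase-AS, whose reprogramming factors are switched on by doxycycline; the M stands for Myc, which the OKS construct lacks. Day 0 libraries are these lines as NPCs in serum-free medium with EGF, FGF-2 and heparin. From then on, cells were kept in fetal bovine serum with leukemia inhibitory factor and doxycycline (called serum below), and were collected on days 2, 4, 6, 10, 14 and 20 (R9) or 2, 4, 6, 10 and 18 (R10; OKS on days 2, 6 and 18 only). Other cultures were moved on day 6 to 2i-LIF, which replaces serum by LIF plus the inhibitors CHIR-99021 and PD0325901 and whose recipe lists no doxycycline. Wild-type (WT) NPCs without the construct, either in NPC medium or after 2 days in serum with doxycycline, served as controls, and 9 libraries of ESC lines (O4G, R1 and R1-Clone3) in 2i-LIF marked the pluripotent end. Each OKMS or OKS time point was 1 library per chemistry, the lines were not described as independent clones, and nothing states that numbered libraries came from separate cultures, so the p-values below measure the spread between these libraries, which may be technical.

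Libraries held 447990 to 1390424 reads (R9) and 566599 to 4236442 reads (R10), and values are CPM, read counts scaled to the total of the library. In NPC libraries the summed level of the 7 neural progenitor markers was 4438 to 7036 CPM (R9) and 4935 to 6460 CPM (R10), against 4.41 to 42.9 CPM in the 7 R10 ESC libraries. The pluripotency markers gave 14.9 to 28.0 CPM in R10 NPC and 11001 to 13551 CPM in R10 ESC libraries. The labels of both ends therefore matched their markers. The R10 day 18 libraries and the numbered R10 ESC libraries belong to a set deposited later, so within R10 the latest day and that set cannot be told apart.

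Smooth-muscle actin genes are read out by many cells that spread, adhere or contract, not by muscle alone. Their promoters often carry a CArG box, the binding motif of serum response factor (Srf), which acts with the myocardin-related coactivators Mrtfa and Mrtfb when free actin monomers become scarce. Tropomyosins lie along the filament and set which myosins and other proteins can bind it, and Tmsb4x holds actin monomers back from polymerising.

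On mm10 with GENCODE M21 gene models, the 10 genes lie on 8 chromosomes, and the intervals span the whole gene with exons, introns and UTRs. On the minus strand are Acta2 (chr19:34241090-34255590), Actg2 (chr6:83512905-83536265), Tagln (chr9:45929619-45936058), Tpm1 (chr9:67022590-67049406), Tpm2 (chr4:43514711-43523765) and Tmsb4x (chrX:167207093-167209315). On the plus strand are Cnn1 (chr9:22099216-22109630), Cnn2 (chr10:79988584-79996062), Myl9 (chr2:156775420-156781658) and Tpm4 (chr8:72134975-72153142).

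The promoters were searched for the CArG box. RefSeq promoters (GRCm38.p6, 250 bases before to 50 after the start of the gene) were given for 8 of the 10 genes, and those of Cnn2 and Myl9 held an exact CArG box, a motif found in 535 of all 32851 promoters (1.63%). Allowing 1 changed letter, Acta2 and Tpm1 joined them, so 4 of 8 held a window, against 21.1% of all promoters. The motif reads the same on both strands, and no windows overlapped. The 4 promoters are shown because they hold such a window and belong to genes that rose in serum. Capitals mark the CArG box or the window 1 letter off, and each run is 5′ to 3′ on the strand of the gene. A match is a match of letters, not a measured binding site. They lie at chr19:34255324-34255623 (minus strand) for Acta2, chr10:79988350-79988649 (plus) for Cnn2, chr2:156775214-156775513 (plus) for Myl9 and chr9:67049164-67049463 (minus) for Tpm1.
Acta2: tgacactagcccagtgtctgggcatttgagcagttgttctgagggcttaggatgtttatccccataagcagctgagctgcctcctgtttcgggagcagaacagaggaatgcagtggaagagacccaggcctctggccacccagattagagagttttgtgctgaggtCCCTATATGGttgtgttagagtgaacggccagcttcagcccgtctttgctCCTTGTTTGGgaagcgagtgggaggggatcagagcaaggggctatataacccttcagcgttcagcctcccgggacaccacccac
Cnn2: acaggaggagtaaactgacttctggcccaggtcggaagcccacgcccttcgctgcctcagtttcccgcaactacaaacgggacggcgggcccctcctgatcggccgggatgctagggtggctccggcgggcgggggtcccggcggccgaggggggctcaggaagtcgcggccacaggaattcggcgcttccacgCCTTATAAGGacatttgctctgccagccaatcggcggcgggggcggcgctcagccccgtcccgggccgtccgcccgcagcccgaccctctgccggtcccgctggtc
Myl9: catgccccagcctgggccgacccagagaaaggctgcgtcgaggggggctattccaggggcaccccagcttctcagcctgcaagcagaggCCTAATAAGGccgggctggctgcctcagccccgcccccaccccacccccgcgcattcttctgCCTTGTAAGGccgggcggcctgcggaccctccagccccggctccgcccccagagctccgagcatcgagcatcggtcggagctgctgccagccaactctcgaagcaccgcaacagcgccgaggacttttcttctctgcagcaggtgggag
Tpm1: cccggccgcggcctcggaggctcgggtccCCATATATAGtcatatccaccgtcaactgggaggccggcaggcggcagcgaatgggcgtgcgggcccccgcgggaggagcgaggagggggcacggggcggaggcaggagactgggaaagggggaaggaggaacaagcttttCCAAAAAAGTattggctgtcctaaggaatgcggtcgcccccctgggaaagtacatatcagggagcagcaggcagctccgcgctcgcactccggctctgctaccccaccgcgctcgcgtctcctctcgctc

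Tpm1 has a pair of promoters. Transcripts that start at exon 1a, the upstream one, run on into either exon 2a or exon 2b and encode the long tropomyosins of 284 residues; exon 2a is the smooth-muscle choice. Transcripts that start at the internal exon 1b skip exon 2 and encode the short tropomyosins of 248 residues. Further on, exon 6a or 6b is used. The alternative exons are printed because the transcript results turn on which is used. Capitals mark the positions at which an exon differs from its partner, read 5′ to 3′ on the minus strand of chromosome 9 (GRCm38, GENCODE annotation). Exon 2a is chr9:67048124-67048249 and exon 2b is chr9:67047786-67047911, both 126 bases, identical at 60 positions (47.6%). Exon 6a is chr9:67032466-67032541 and exon 6b is chr9:67031951-67032026, both 76 bases, identical at 43 positions (56.6%).
exon 2a: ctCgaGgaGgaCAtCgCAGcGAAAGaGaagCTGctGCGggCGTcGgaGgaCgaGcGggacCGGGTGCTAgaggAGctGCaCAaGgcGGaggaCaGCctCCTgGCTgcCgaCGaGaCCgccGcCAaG
exon 2b: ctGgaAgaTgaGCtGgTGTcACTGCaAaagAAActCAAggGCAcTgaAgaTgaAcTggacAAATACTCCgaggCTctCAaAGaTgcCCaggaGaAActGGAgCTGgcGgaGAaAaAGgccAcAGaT
exon 6a: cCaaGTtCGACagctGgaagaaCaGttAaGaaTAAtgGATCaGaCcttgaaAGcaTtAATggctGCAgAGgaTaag
exon 6b: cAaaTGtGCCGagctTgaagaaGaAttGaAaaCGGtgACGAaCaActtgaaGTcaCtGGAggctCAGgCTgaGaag

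The first question was what happened to these genes as NPCs of both systems went through the serum course. In the R9 series, Acta2, Actg2, Tagln, Cnn2, Myl9 and Tpm1 rose: they were already higher at day 2 and still higher at day 20. This was a rise of 6 of the 10 genes in a course in which 10.7% of the 19357 genes tested changed, 5.5% upwards, at an adjusted p under 0.05 and a largest log2 difference of at least 1 (limma's moderated F test over all days, with the system as a term; all p-values below are adjusted over every gene tested). The median over the 10 genes of the largest log2 difference from day 0 was 5.07, against 0.63 over all genes tested. Both rest in part on the filter, since Actg2, Cnn1 and Tpm2 reached 1 CPM in neither the OKMS nor the OKS NPC library and Acta2 in 1 of them, so these 4 entered through serum. Tpm2 and Cnn1 were called on day 20 alone, and Tpm4 and Tmsb4x were already abundant in NPCs. In bulk RNA, more cells of a type and more RNA per cell cannot be told apart.

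**Figure D1:**
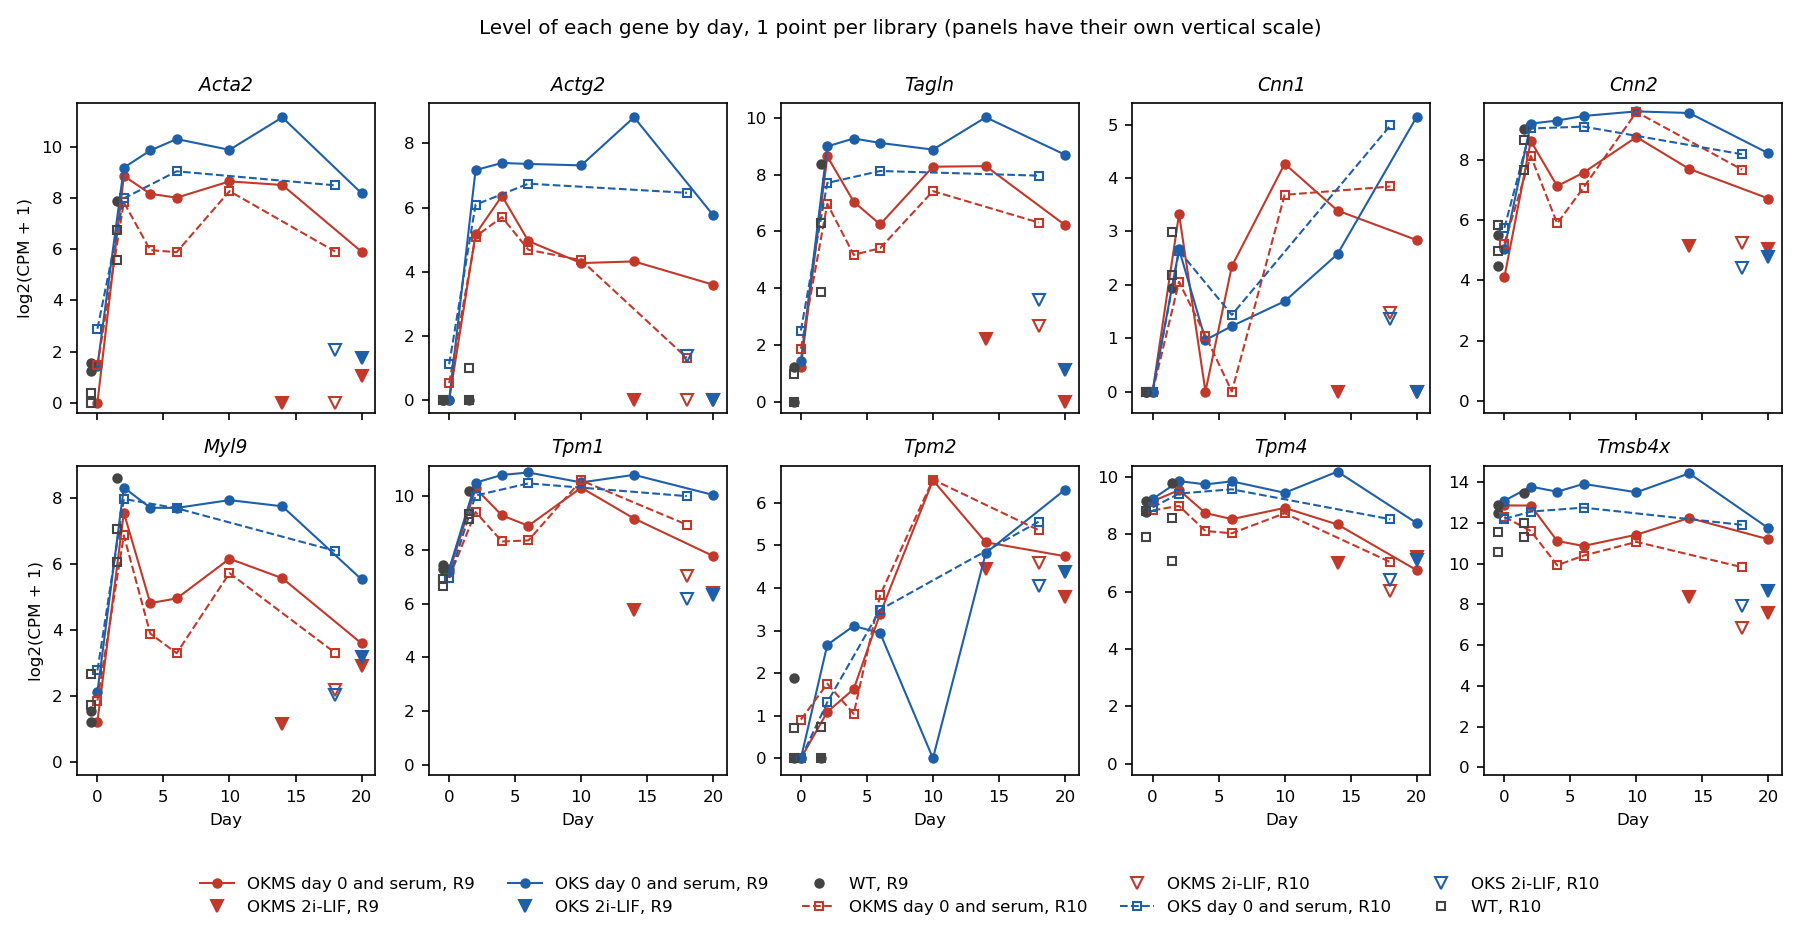
Level of each of the 10 genes as log2(CPM + 1) against day, 1 point per library, OKMS in red and OKS in blue (R9 filled with solid lines, R10 open with dashed lines), WT libraries in grey (drawn slightly left of their day) and 2i-LIF libraries as triangles. Acta2, Actg2, Tagln, Cnn2, Myl9 and Tpm1 stand higher in every OKMS and OKS serum library than at day 0 of the same chemistry. The 2i-LIF triangles of these genes lie near the day 0 level, with those of Tpm1 in R9 below it. For Tpm4 and Tmsb4x the triangles lie well below day 0, and Tpm2 is the gene whose triangles stay up.

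Acta2, the actin of vascular smooth muscle and of stress fibres in activated fibroblasts, was near nothing in R9 NPCs: 0 CPM in the OKMS line, 1.69 in the OKS line, and 1.34 and 1.94 in the WT libraries. In OKMS it stood at 468, 288, 259, 404, 366 and 59.1 CPM on days 2, 4, 6, 10, 14 and 20, and in OKS at 587, 935.5, 1276, 953, 2299 and 292.5 CPM. No serum library overlapped the NPCs. OKMS was highest on day 2 and OKS on day 14, and both were lowest on day 20. The log2 difference from day 0 was 8.32 ± 0.453 (SE) on day 2 (limma, adjusted p = 6.95e-06), 9.13 ± 0.453 on day 14 (adjusted p = 1.44e-06) and 6.34 ± 0.453 on day 20 (adjusted p = 1.36e-05).

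Actg2, the actin of enteric smooth muscle, had no read in any of the 4 R9 NPC libraries. OKMS gave 35.0, 81.4, 30.0, 18.3, 19.0 and 11.1 CPM over the 6 days and OKS 143, 167, 163, 158, 450.0 and 53.2 CPM. Every serum library lay above the NPCs, and every OKS library lay above the OKMS library of its day. Against a floor of 3 reads over the 4 NPC libraries, the OKMS mean was at least 33.7-fold higher and the OKS mean at least 196-fold higher. The largest log2 difference was 6.88 ± 0.772 on day 4 (limma, adjusted p = 0.000421).

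Tagln (transgelin), an actin cross-linker that marks early smooth muscle, followed Acta2. R9 NPC values were 1.35 (OKMS), 1.69 (OKS), 1.34 and 0 CPM (WT). OKMS went through 400, 131.5, 75.1, 311, 315.5 and 73.9 CPM and OKS through 512, 621, 557, 473, 1043 and 417.5 CPM. No serum library overlapped the NPCs, and OKMS was low on days 4, 6 and 20. The rise was 7.50 ± 0.592 on the log2 scale on day 2 (limma, adjusted p = 4.59e-05) and 6.14 ± 0.592 on day 20 (adjusted p = 8.33e-05).

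Myl9, the regulatory light chain that switches on non-muscle and smooth-muscle myosin, was at 1.34 to 3.37 CPM in the 4 R9 NPC libraries. It reached 186.5 CPM on day 2 in OKMS and then stood at 27.1, 30.0, 70.3, 46.4 and 11.1 CPM. In OKS it was 317 CPM on day 2 and 207, 206, 243, 213 and 45.3 CPM afterwards. Both systems were thus highest on day 2, the first day sampled, at a log2 difference of 6.25 ± 0.487 (limma, adjusted p = 4.59e-05), and lowest on day 20, at 2.88 ± 0.487 (adjusted p = 0.00253).

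The calponins parted. Cnn2, the calponin of non-muscle and smooth-muscle cells, was present in R9 NPCs at 16.2 to 44.1 CPM and rose to 397, 140, 191, 435, 208 and 105 CPM in OKMS and 592, 636, 707, 785, 757 and 298 CPM in OKS. Its largest log2 difference was 4.62 ± 0.376 on day 10 (limma, adjusted p = 3.42e-05), and its serum libraries did not overlap the NPCs. Cnn1, the calponin of differentiated smooth muscle, had no read in the NPCs and stayed low: 9.04, 0, 4.09, 18.3, 9.50 and 6.16 CPM in OKMS and 5.35, 0.954, 1.34, 2.23, 4.96 and 34.5 CPM in OKS. OKMS was highest on day 10 and OKS on day 20. Cnn1 did not pass the test over all days (limma F test, adjusted p = 0.0945), while day 20 alone did, at a log2 difference of 3.99 ± 1.02 (adjusted p = 0.0196).

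Tpm1 started from a level shared by all NPCs, 144, 155, 156.5 and 172 CPM in R9. OKMS gave 1253, 624, 478, 1280.0, 576 and 218 CPM, and OKS gave 1456, 1779, 1894, 1466, 1783 and 1059.9 CPM. Every serum library was above the NPCs, OKMS on day 20 by the least. The largest log2 difference was 3.19 ± 0.523 on day 10 (limma, adjusted p = 0.00369), and that of day 20 was 1.68 ± 0.523 (adjusted p = 0.0457). Over all days the adjusted p was 0.0136, and 0.0528 without the day 20 libraries.

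Tpm2, the second long-form tropomyosin gene of muscle, followed another course. It had no read in 3 of 4 R9 NPC libraries and 2.68 CPM in the other. OKMS climbed through 1.13, 2.09, 9.55 and 91.4 CPM to day 10 and then gave 32.7 and 25.9 CPM; OKS gave 5.35, 7.63, 6.69, 0, 27.3 and 78.3 CPM. OKMS was thus highest on day 10, when OKS had no read, and OKS was highest on day 20. Across the 22 R9 libraries, Tpm2 and Acta2 had a Pearson correlation of 0.18, and in the 23 R10 libraries 0.10, whereas Acta2 and Tagln had 0.98 and 0.97; these describe libraries that share lines, days and depth. By the F test Tpm2 was not called (adjusted p = 0.178), and day 20 alone was, at 5.53 ± 1.53 (limma, adjusted p = 0.0285).

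Tpm4, a short cytoskeletal tropomyosin, and Tmsb4x (thymosin beta 4) were abundant at the start. Tpm4 stood at 563, 595, 433 and 560.5 CPM in R9 NPCs and at 739, 424, 366, 480, 322 and 106 CPM in OKMS and 917, 847, 912, 692, 1153 and 332 CPM in OKS. OKS was above the NPCs until day 14 and OKMS on day 2 only. The F test gave an adjusted p of 0.0527, and on day 20 Tpm4 fell, with a log2 difference of -1.62 ± 0.408 (limma, adjusted p = 0.0187). Tmsb4x was at 5795 to 8764 CPM in R9 NPCs. In OKMS it held 7436 CPM on day 2 and then 2222, 1876, 2753, 4876 and 2354 CPM, whereas OKS gave 14174, 11921, 15548, 11683, 22259 and 3433 CPM. OKMS lay below the NPCs from day 4 and OKS above them until day 14, and the course common to both systems did not pass the test (limma F test, adjusted p = 0.315).

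By day, 6 of the 10 genes were called higher on days 2, 4, 6, 10 and 14 (the genes named above), where 2.99%, 2.46%, 2.59%, 3.6% and 2.85% of all genes were called higher. On day 20, 9 were called, 8 higher and Tpm4 lower, against 16.6% of all genes (7.59% higher, 9.03% lower). With edgeR on the recovered reads, all 10 were called over the course, where edgeR called 4573 genes (2506 higher, 2067 lower) and limma 2078.

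The R10 series, which no label describes as a separate reprogramming run, covered the course with fewer libraries. It called 4 of the 10 genes, all higher, against 2.04% of 18212 genes (1.36% higher, 0.681% lower): Acta2 (largest log2 difference 7.02, limma F test, adjusted p = 0.0387), Tagln (5.96, 0.0327), Cnn2 (4.61, 0.0391) and Tpm2 (5.91, 0.0327), each largest on day 10, which is 1 OKMS library. Tpm2 and Cnn1 were under 1 CPM in both R10 NPC lines of the course and so passed the filter through serum alone. No gene of the 10 was called without day 18, and 7 were called on the days with both systems alone. R10 Acta2 was 1.76 CPM (OKMS) and 6.43 CPM (OKS) in NPCs, 228, 61.7, 58.3, 309.7 and 59.4 CPM in OKMS on days 2, 4, 6, 10 and 18, and 254, 531 and 362 CPM in OKS on days 2, 6 and 18. The low OKMS values of Tagln on days 4 and 6 in R9 stood in R10 too, with Tagln at 125, 35.1, 41.5, 171 and 78.6 CPM. Tpm2 in R10 OKMS was 2.37, 1.06, 13.2, 92.5 and 40.1 CPM, again highest on day 10. On day 18, Cnn1 was called higher in R10 with 13.4 CPM (OKMS) and 30.7 CPM (OKS) against 0 in both NPC lines, a log2 difference of 4.42 ± 0.623 (limma, adjusted p = 0.00919; 5.88% of genes were called higher on that day).

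The level of these genes moved alongside changes in cell type markers, whose part was not tested. Of 5 striated muscle markers none was called in the R9 course (limma), and their summed level was 0 in every R9 NPC library and 0 to 22.3 CPM in OKMS and OKS serum. Of the mature smooth muscle markers, 4 of 5 genes were in the table. Their sum was 72.2 to 180 CPM in R9 NPCs, 10.4 to 75.95 CPM in OKMS serum and 71.4 to 90.6 CPM in OKS serum, since Smtn fell while Lmod1 and Des rose. Smtn (smoothelin) went from a mean of 147 CPM (n = 4) in R9 NPCs to 18.7 CPM in OKMS (n = 6) and 32.03 CPM in OKS serum (n = 6). Lmod1 (leiomodin) had no read in R9 NPCs and reached 51.3 CPM in OKS. Summed fibroblast markers were 28.3 to 223 CPM in R9 NPCs and 16.0 to 146 CPM in serum, with 2 of 8 called higher, and summed pericyte markers were 6.75 to 10.6 CPM in R9 NPCs and 2.09 to 19.2 CPM in OKMS and 12.9 to 66.9 CPM in OKS serum, with 0 of 4 called. Other marker lists changed as well: 6 of 7 neural progenitor markers fell and 5 of 6 pluripotency markers rose. Of 5 astrocyte markers 2 rose and 2 fell, of 3 neuron markers 2 rose and 1 fell, and 1 of 4 epithelial markers rose. The median largest differences of these lists, in this order, were -4.99, 8.10, 3.70, 5.80 and 7.26 on the log2 scale. That of the mature smooth muscle markers was 3.86, with 2 of 4 called higher and 1 lower. Summed pluripotency markers were 68.9 to 9440 CPM in OKMS and 83.0 to 8137 CPM in OKS serum, and summed neural progenitor markers 16.0 to 2719 CPM and 51.7 to 5021 CPM.

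Other genes of the pathway were counted from lists chosen by function, with the R9 course's 5.5% of genes higher and 5.24% lower as background. Among the other actins, 1 of 5 was called, Actl6a, a chromatin subunit (1.09 on day 20); Actb, the ubiquitous cytoplasmic actin, was not (adjusted p = 0.577). Of 11 other myosin, calponin, transgelin and tropomyosin genes, 3 rose, Tagln2 (largest log2 difference 4.21), Cald1 (caldesmon, 2.21) and Myl6 (1.69). Mylk, the myosin light chain kinase, fell by 3.68 on its day of largest difference. Of 8 smooth-muscle differentiation genes, 4 rose and 2 fell. Beside Mylk, Lmod1 (4.96) and Des (desmin, 4.77) were among them. Lmod1, with no read in R9 NPCs, passed the filter through serum alone, so the filter helps to set this count. Of 16 crosslinker and adhesion genes, 4 rose and 2 fell, led by Fhl2 (5.36), Actn1 (3.04), Itga5 (-2.88) and Fhl1 (-2.64). Of 7 monomer-binding genes, Dstn rose (1.96) and Pfn2 (-2.39) and Cfl2 (-2.11) fell. The list medians were 1.09, 1.44, 3.19, 1.02 and 0.40 in this order, beside 0.63 for all genes.

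Of 13 regulators, 2 rose and 1 fell: Klf4 (4.32), itself one of the delivered factors, Tgfb2 (1.79) and Tgfbr2 (-4.88). Srf was not called (largest log2 difference 0.67, adjusted p = 0.622), nor were Mrtfa (0.91, 0.788) and Mrtfb (-0.76, 0.752), by the limma F test. Srf stood at a mean of 33.7 CPM in R9 NPCs (range 28.1 to 38.8), 37.9 CPM in OKMS (30.8 to 49.1) and 50.3 CPM in OKS serum (34.8 to 64.7). Of 11 splice regulators of tropomyosin, 3 rose, Rbpms2 (3.40), Rbpms (2.65) and Mbnl2 (1.67).

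The WT control asks what the serum medium with doxycycline did in 2 days without the factors. Acta2, Tagln, Cnn1, Cnn2, Myl9 and Tpm1 rose in WT cells; Actg2 and Tpm2 stayed at or under the limit that 3 reads set, and Tpm4 and Tmsb4x were not called. That was 6 of 8 tested genes, in a comparison with 26.8% of 14688 genes called (14.9% higher). Acta2, Tagln and Cnn1 were under 1 CPM in both WT NPC libraries and so passed the filter through serum alone. The median log2 difference was 2.67 over the 8 and 0.12 over all genes.

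Acta2 went from 0 and 0.287 CPM in the R10 WT NPC libraries (replicates 2 and 3) to 47.0 and 107 CPM in WT serum. The ratio of the summed reads, scaled to depth, was 529 with an exact 95% counting interval of 94.5 to 2.09e+04, and the log2 difference was 5.99 ± 0.511 (limma, adjusted p = 0.00231). Myl9 went from 5.40 and 2.30 to 65.0 and 132 CPM (4.35 ± 0.499, adjusted p = 0.00401). Tpm1 went from 119 and 101.0 to 571 and 646 CPM (2.46 ± 0.212, adjusted p = 0.00237). In each of the 3 genes both serum libraries lay above both NPC libraries.

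Tagln went from 0.953 and 0 to 13.7 and 77.1 CPM (limma, 4.60 ± 0.855, adjusted p = 0.0149), and its serum libraries were the most unequal. Cnn2 went from 30.8 and 56.5 to 204 and 403 CPM (2.75 ± 0.431, adjusted p = 0.00952). Cnn1 went from no read in 2 libraries to 3.52 and 6.92 CPM (2.58 ± 0.430, adjusted p = 0.0111), at least 11.5-fold against 3 reads over both NPC libraries. All 3 were without overlap, and serum replicate 3 was above replicate 2 in each.

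Tpm4 was 235 and 442 CPM in NPCs and 132 and 377 CPM in serum (limma, adjusted p = 0.518), and Tmsb4x was 1523 and 2976 against 2519 and 4145 CPM (adjusted p = 0.37); both overlapped. With 1 library left out, the spread rested on 1 pair, and 0 to 3 genes of the 10 were called, with the same direction. The single R9 WT serum library, replicate 2, had 236 CPM of Acta2, 330 CPM of Tagln, 526 CPM of Cnn2, 388 CPM of Myl9 and 1179.9 CPM of Tpm1, all above the 4 R9 NPC libraries, and no read of Actg2 or Tpm2. Tpm4 and Tmsb4x, not called in R10, lay above the R9 NPCs there too, at 874 and 11558.5 CPM against at most 595 and 8764 CPM. The WT serum libraries also stood apart in other markers: the summed astrocyte markers were 8025 and 8331 CPM in R10 WT serum against 1193 to 1568 CPM in R10 NPCs, and the summed markers of growing cells were 13.8 and 25.1 CPM against 1184 to 1506 CPM. Of 6 neural progenitor markers 3 fell, of 5 fibroblast markers 1 rose, of 2 neuron markers 1 rose, of 4 pluripotency markers 1 fell, and the 1 pericyte marker tested fell. The part of any of these in the rise of the actin genes was not tested.

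Of the pathway lists in WT cells, 5 of 6 tested smooth-muscle differentiation genes rose, and 1 fell, and 9 of 16 crosslinker and adhesion genes rose with none lower, beside 14.9% higher and 11.9% lower over all genes. Of 8 smooth-muscle differentiation genes in the data, 6 passed the filter. A gene could do so through serum alone, which helps to set such counts, and how many did was not counted. Of 11 other family genes 5 rose, of 7 monomer-binding genes 2 and of 11 regulators 2, with none lower; of 3 other actins 1 fell, and of 9 splice regulators 2 rose and 2 fell. Synpo2 and Lmod1 rose by 4.12 and 4.10 and Mylk by 2.15, while Smtn fell by 2.30 on the log2 scale. Mylk was thus higher in R10 WT serum on day 2, while in the R9 course its day of largest difference was a fall. Its R9 OKMS and OKS serum means were 4.81 and 12.1 CPM beside 13.0 CPM in R9 NPCs. Over all days the OKS mean was thus near that of the NPCs. Among the splice regulators, Rbpms rose (1.98) and Rbpms2 fell (-1.28). Srf (-0.47, adjusted p = 0.211), Mrtfa (0.62, 0.216) and Mrtfb (0.25, 0.751) were not called by limma.

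The same medium with and without the factors was compared on day 2, with 1 OKMS and 1 OKS library against 2 WT serum libraries, all R10. The WT serum libraries are those of the previous comparison. Mitochondrial reads were 0.319% and 0.165% in WT serum, and 1.51% (OKMS) and 1.64% (OKS) with the factors. In R10 NPCs they were 0.273% and 0.153% in WT, 1.08% in OKMS and 1.12% in OKS. The libraries thus differed in more than the factors, and the part of this was not tested. Actg2 was the 1 gene of the 10 called, and it was higher with the factors, where 0.74% of 15402 genes were called (0.714% higher). It was 0 and 0.988 CPM in WT serum (3 reads in all) and 33.2 CPM in OKMS and 67.2 CPM in OKS. The ratio of summed reads, scaled to depth, was 105, with a 95% counting interval of 35.4 to 512, and the log2 difference was 5.10 ± 0.651 (limma, adjusted p = 0.0107). The groups did not overlap. Actg2 was under 1 CPM in both WT serum libraries and so passed the filter through the factor libraries alone. In R9, the WT serum library had no Actg2 read while OKMS and OKS had 35.0 and 143 CPM. Without OKMS, or without OKS, no gene of the 10 passed, with Actg2 at 5.60 and 4.60, and without WT serum replicate 3, 4 genes did.

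The other 9 were not called. Acta2 was 228 and 254 CPM with factors and 47.0 and 107 CPM without (limma, 1.75, adjusted p = 0.115), and Tagln was 125 and 209 CPM with and 13.7 and 77.1 CPM without (2.26, adjusted p = 0.162); neither overlapped. Cnn2, Myl9, Tpm1, Tpm4 and Tmsb4x had log2 differences of 0.43, 0.87, 0.47, 1.38 and 0.43, Tpm2 1.17 and Cnn1 -0.23. In R9, where 1 WT serum library was the control, Myl9 was 388 CPM without and 186.5 and 317 CPM with factors, and Acta2 236 CPM without and 468 and 587 CPM with. The median of the 10 was 1.02 and of all genes 0.09. The growing-cell markers, 3 of 3, were called higher with the factors. So were 1 of 7 neural progenitor, 1 of 3 neuron and 1 of 5 pluripotency markers. The part of these markers was not tested.

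Most of these genes were higher in OKS than in OKMS serum libraries. Construct and line cannot be told apart here, and the p-values measure how alike the difference was over the days. The libraries are the serum libraries of the R9 course. On matched R9 days, 8 of the 10 genes were lower in OKMS, all but Cnn1 and Tpm2, against 18% of 14277 genes called (11% lower, 6.93% higher). The median log2 difference of the 10 was -1.59 and that of all genes -0.11. Of the called genes, 38.6% were higher in OKMS, and 53.8% with median centring.

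**Figure D2:**
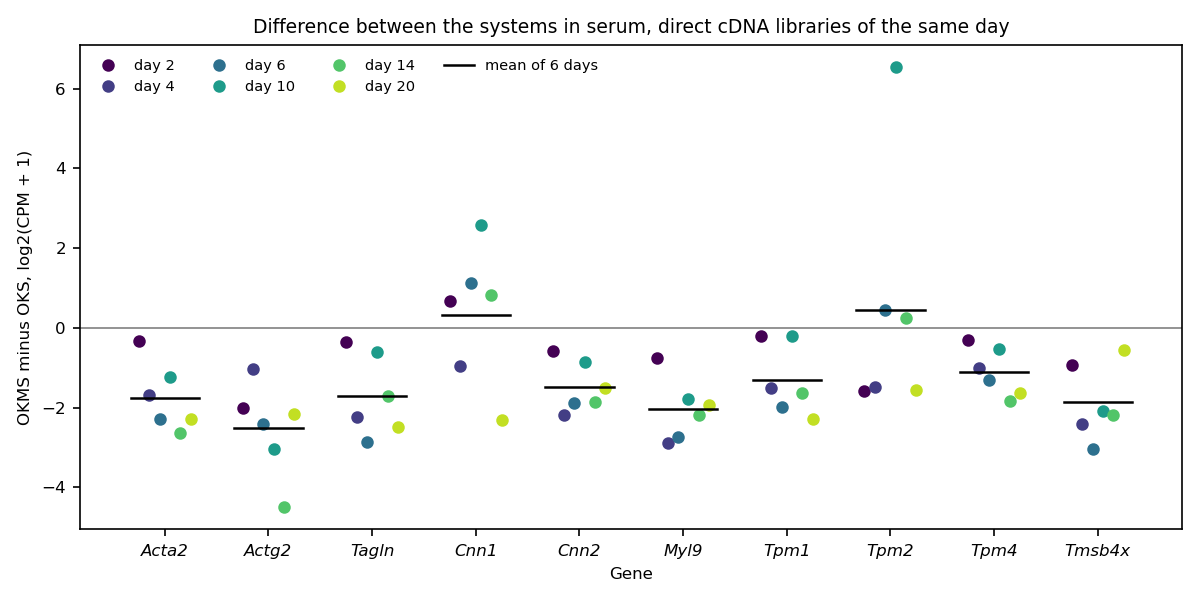
OKMS minus OKS difference in log2(CPM + 1) for each gene on each of the 6 serum days of the R9 series (1 point per day), with the mean of the days as a black bar. Acta2, Actg2, Tagln, Cnn2, Myl9, Tpm1, Tpm4 and Tmsb4x lie below 0 on all 6 days, while Cnn1 and Tpm2 lie on both sides and the day 10 point of Tpm2 stands alone above 6.

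Actg2 differed by -2.52 ± 0.334 (limma with day as a block, adjusted p = 0.000811), Myl9 by -2.05 ± 0.245 (adjusted p = 0.000667) and Tmsb4x by -1.87 ± 0.319 (adjusted p = 0.00184). Acta2 (-1.75 ± 0.256, adjusted p = 0.000996), Tagln (-1.71 ± 0.292, 0.00184), Cnn2 (-1.48 ± 0.210, 0.000957) and Tpm1 (-1.30 ± 0.269, 0.00429) came next. Tpm4 was at -1.11 ± 0.207 (adjusted p = 0.00273) and was lost with median centring (-0.95), without day 14 (-0.96) or without day 20 (-0.998), where its difference fell under the threshold of 1. In means, OKS had 3.44-fold more Acta2, 5.83-fold more Actg2 and 3.67-fold more Tmsb4x than OKMS. These 8 genes were lower in OKMS on 6 of 6 days.

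The gap varied by day without a steady course, with no test of single days. Acta2 differed by -0.33 on day 2 and by up to -2.65 (day 14), and Tagln by -0.36 on day 2 and by up to -2.88 (day 6). Tpm1 had its smallest gap on day 10 (-0.20) and its largest on day 20 (-2.28), Actg2 on days 4 (-1.03) and 14 (-4.50), and Tmsb4x on days 20 (-0.54) and 6 (-3.05). None of the 10 was called without the day block or in the 3 matched R10 days alone, where Acta2 and Actg2 differed by -1.97 and -2.73. The systems differed in other markers as well: all 4 epithelial markers and 3 of 6 pluripotency markers were higher in OKMS, and 5 of 5 astrocyte, 3 of 4 pericyte, 2 of 4 fibroblast and 3 of 6 neural progenitor markers were lower. Of 3 neuron markers, 2 were higher and 1 lower, and 2 of 3 growing-cell markers were higher. Summed growing-cell markers had a median of 1036 CPM in OKMS and 223 CPM in OKS serum. Their part in the difference was not tested.

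Of the pathway lists, 7 of 16 crosslinker and adhesion genes were lower in OKMS and none higher, and 4 of 8 smooth-muscle differentiation genes were lower and 1 higher, beside 11% lower and 6.93% higher over all genes. Of 11 other family genes 4 were lower and 1 higher, of 13 regulators 4 were lower, of 4 other actins 1 was higher, of 10 splice regulators 1 was higher, and of 7 monomer-binding genes none was called by limma. Among the regulators, Mrtfa was called lower (-1.01 ± 0.311, limma, adjusted p = 0.0279). Srf (-0.39, adjusted p = 0.177) and Mrtfb (-0.26, 0.63) were not.

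These genes were lower in 2i-LIF than in serum of the same day. In the 5 pairs of the same chemistry, system and day, all 10 genes were called lower, while 12.3% of 14935 genes were called (6.32% lower, 5.95% higher). Fell and rose below refer to the serum partner, not to day 6, when cultures were moved. In serum on day 6, Tpm2 was 9.55 (R9 OKMS), 6.69 (R9 OKS), 13.2 (R10 OKMS) and 10.2 CPM (R10 OKS). Its later 2i-LIF values were 12.9 to 22.9 CPM. Of the 10, Acta2, Actg2, Tagln and Cnn1 reached 1 CPM in 3, 1, 4 and 2 of the 5 2i-LIF libraries and so passed the filter of 5 libraries only with the help of serum. The median log2 difference of the 10 was -3.16 and that of all genes -0.03. Serum, doxycycline with the factors it drives, and the inhibitors changed together, so their shares cannot be told apart.

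**Figure D3:**
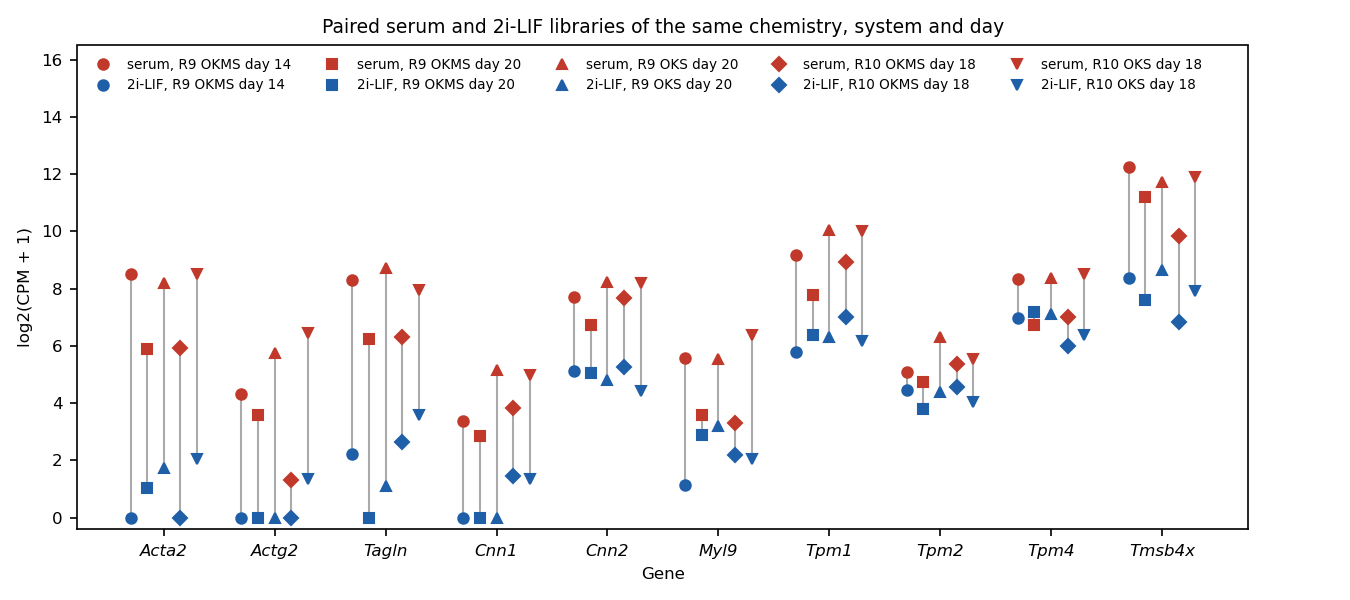
log2(CPM + 1) of each gene in the 5 pairs of serum (red) and 2i-LIF (blue) libraries of the same chemistry, system and day, each pair joined by a line. For 9 of the genes every 2i-LIF point lies under its serum partner; for Tpm4 the R9 OKMS day 20 pair runs the other way.

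Acta2 in serum was 366 CPM (R9 OKMS day 14), 59.1 (R9 OKMS day 20), 292.5 (R9 OKS day 20), 59.4 (R10 OKMS day 18) and 362 CPM (R10 OKS day 18). The 2i-LIF partners had 0, 1.08, 2.33, 0 and 3.13 CPM. The groups were far apart, 174-fold in their means over both chemistries, and the log2 difference was -6.44 ± 0.412 (limma with the pair as a block, adjusted p = 2.58e-08). Tagln went from 315.5, 73.9, 417.5, 78.6 and 249.7 CPM to 3.66, 0, 1.16, 5.29 and 10.95 CPM (-5.59 ± 0.424, adjusted p = 1.77e-07). Actg2 had a total of 1 read over the 5 2i-LIF libraries together, against 19.0, 11.1, 53.2, 1.48 and 87.1 CPM in serum (-4.02 ± 0.579, adjusted p = 0.000137).

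Tmsb4x showed the fall at the highest level. It was 4876, 2354, 3433, 909.6 and 3852 CPM in serum and 333, 193.5, 401.5, 115 and 239 CPM in 2i-LIF, a ratio of the means of 12 and a log2 difference of -3.51 ± 0.168 (limma, adjusted p = 1.28e-09). The 5 pairs lay between -4.00 and -2.98. Tpm1 went from 576, 218, 1059.9, 491 and 1028 CPM to 53.7, 82.8, 79.1, 129 and 72.0 CPM (-2.85 ± 0.284, adjusted p = 3.4e-06), and Cnn2 from 208, 105, 298, 205 and 292 CPM to 34.2, 32.3, 26.8, 37.0 and 20.3 CPM (-2.78 ± 0.254, adjusted p = 1.45e-06). In neither gene did the groups overlap.

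Cnn1 fell by 3.48 ± 0.498 (limma, adjusted p = 0.000127) and had 2 reads in the 2i-LIF libraries. Myl9 fell by 2.59 ± 0.515 (adjusted p = 0.00222), with serum at 46.4, 11.1, 45.3, 8.90 and 83.2 CPM and 2i-LIF at 1.22 to 8.15 CPM. Tpm2 and Tpm4 moved the least. Tpm2 kept 12.9 to 22.9 CPM in 2i-LIF, against 25.9 to 78.3 CPM in serum (-1.16 ± 0.270, adjusted p = 0.00701), and was lost without the R9 OKS day 20 pair (-0.97). Tpm4 was 126, 146, 136, 63.5 and 82.9 CPM in 2i-LIF and 322, 106, 332, 129 and 365 CPM in serum (-1.06 ± 0.257, adjusted p = 0.00913), higher in 2i-LIF in 1 of 5 pairs. It was lost under 7 of 15 alternatives, among them the omission of the R9 OKMS day 14 pair (-0.99), the R9 OKS day 20 pair (-1.01) or the R10 OKS day 18 pair (-0.79).

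The difference between the media was also tested for a difference between the systems. None of the 10 genes was called in that interaction (limma, adjusted p of 0.57 to 0.999 over the 10), in which 8 of 14935 genes were called. For Actg2 the OKMS minus OKS difference of differences was 2.36 ± 1.06, and for Acta2 it was 0.03 ± 0.85.

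Of the pathway lists, 6 of 16 crosslinker and adhesion genes fell in 2i-LIF with none higher, led by Zyx (zyxin, -3.03), Fhl2 (-2.08), Fhl1 (-1.69) and Pdlim7 (-1.48). Of 4 other actins, Acta1, the skeletal-muscle actin, fell (-3.46 ± 0.506), from a mean of 16.8 CPM to 0.353 CPM (n = 5 each). With that mean in 2i-LIF, it passed the filter only with the help of serum. Of 10 other family genes, Tagln3 rose (2.02); of 5 smooth-muscle differentiation genes Lmod1 fell (-1.83), and of 7 monomer-binding genes Dstn fell (-1.56). Of 13 regulators the 3 TGF-beta ligands fell, Tgfb3 (-2.60), Tgfb2 (-1.78) and Tgfb1 (-1.69), while Srf (-0.64, adjusted p = 0.133), Mrtfa (-0.38, 0.618) and Mrtfb (-0.19, 0.841) were not called by limma. Of 11 splice regulators Esrp1 (-3.74) and Mbnl2 (-1.64) fell. The list medians in the order crosslinkers, actins, family, differentiation, monomer binding, regulators and splice regulators were -0.89, -0.32, -0.37, -0.40, -0.09, -0.19 and 0.01. Summed pluripotency markers were 9800 to 15721 CPM in 2i-LIF and 5676 to 15642 CPM in the paired serum, and 4 of 6 rose; 3 of 4 epithelial, 2 of 3 astrocyte, 2 of 3 neuron and 1 of 4 neural progenitor markers fell, 1 of 2 endothelial markers rose, and 0 of 3 tested fibroblast markers were called. Their part was not tested.

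The ends of the path were compared in R10, 7 ESC libraries against 4 NPC libraries. All these ESC libraries but the unnumbered R1 library belong to the set deposited later, and no NPC library does. For those libraries, cell type and set cannot be told apart. Of the 6 genes tested, Tpm2 was higher in ESCs, and Myl9, Tpm4 and Tmsb4x were lower, against 45.8% of 15415 genes called (22.4% higher, 23.5% lower). Tmsb4x lay between 126 and 216 CPM in ESCs and at 1523, 2976, 4711 and 5052 CPM in NPCs. The groups did not overlap (-4.32 ± 0.263, limma, adjusted p = 1.07e-09). Tpm4 was 100.8 to 138 CPM in ESCs and 235, 442, 452 and 486 CPM in NPCs (-1.70 ± 0.174, adjusted p = 4.07e-07). Tpm2 was 7.10 to 19.4 CPM in ESCs and 0 to 0.879 CPM in NPCs, 27.6-fold in the means (3.03 ± 0.296, adjusted p = 2.45e-07), and with every NPC library under 1 CPM it passed the filter through ESCs alone. Myl9 was 0 to 2.30 CPM in ESCs and 2.30 to 5.84 CPM in NPCs (-1.53 ± 0.356, adjusted p = 0.00134). Tpm1, at 70.6 to 90.6 CPM in ESCs and 101.0 to 124 CPM in NPCs, differed by -0.44 ± 0.113 (adjusted p = 0.00261), under the fold required, and Cnn2 by -0.47 ± 0.386 (adjusted p = 0.295). Acta2, Actg2, Tagln and Cnn1 were too low for the test in both: Cnn1 had no read in any R10 NPC or ESC library, and Acta2 was 0 to 0.448 CPM in ESCs and 0 to 6.43 CPM in NPCs. Acta2 and Tagln were thus near 0 at both ends of the path and high only in serum among the groups sequenced. Actg2 was near 0 at both ends and also in WT serum (at most 0.988 CPM). It was higher in OKMS and OKS serum alone, and in R10 OKMS on day 18 it was only 1.48 CPM.

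The order of levels over the groups, taken from means of 1 chemistry, differed by gene. For R9 Acta2 it ran from ESC (0 CPM, n = 2) through 2i-LIF (1.13, n = 3) and NPC (1.24, n = 4), which overlap, to WT serum (236, n = 1), OKMS serum (307, n = 6) and OKS serum (1057, n = 6). WT serum lay within the range of OKMS serum (59.1 to 468 CPM) and outside that of OKS serum (292.5 to 2299 CPM). For R9 Tmsb4x it ran from ESC (244) and 2i-LIF (309.5), which overlap, through OKMS serum (3586), NPC (7372) and WT serum (11558.5) to OKS serum (13170); OKMS serum and NPC overlap, and OKS serum (3433 to 22259 CPM) overlaps OKMS serum, NPC and WT serum.

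At the level of transcripts, the forms of Tpm1 that start at exon 1a differed most between NPCs and serum. In R9 NPC libraries, transcripts starting at exon 1a summed to 9.65 to 18.2 TPM (transcript abundance scaled to the library), and those starting at exon 1b to 83.7 to 152 TPM. In serum, exon 1a transcripts stood at 1322, 517, 416, 1454, 546 and 212 TPM in OKMS and 1710, 2315, 2161, 1677, 2412 and 1303 TPM in OKS over the 6 days. Exon 1b transcripts gave 145, 125, 79.8, 109, 96.6 and 45.0 TPM in OKMS and 221, 134, 146, 211, 123 and 33.9 TPM in OKS. In R9 the first did not overlap between NPC and serum, and the second did. In R10 the exon 1b transcripts were higher in serum as well: 143 and 165 TPM in WT serum against 88.1 and 104 TPM in WT NPCs, and 88.9 to 190 TPM in OKMS and OKS serum (n = 8), of which 7 libraries lay above all 4 NPC libraries (88.1 to 107.6 TPM).

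**Figure D4:**
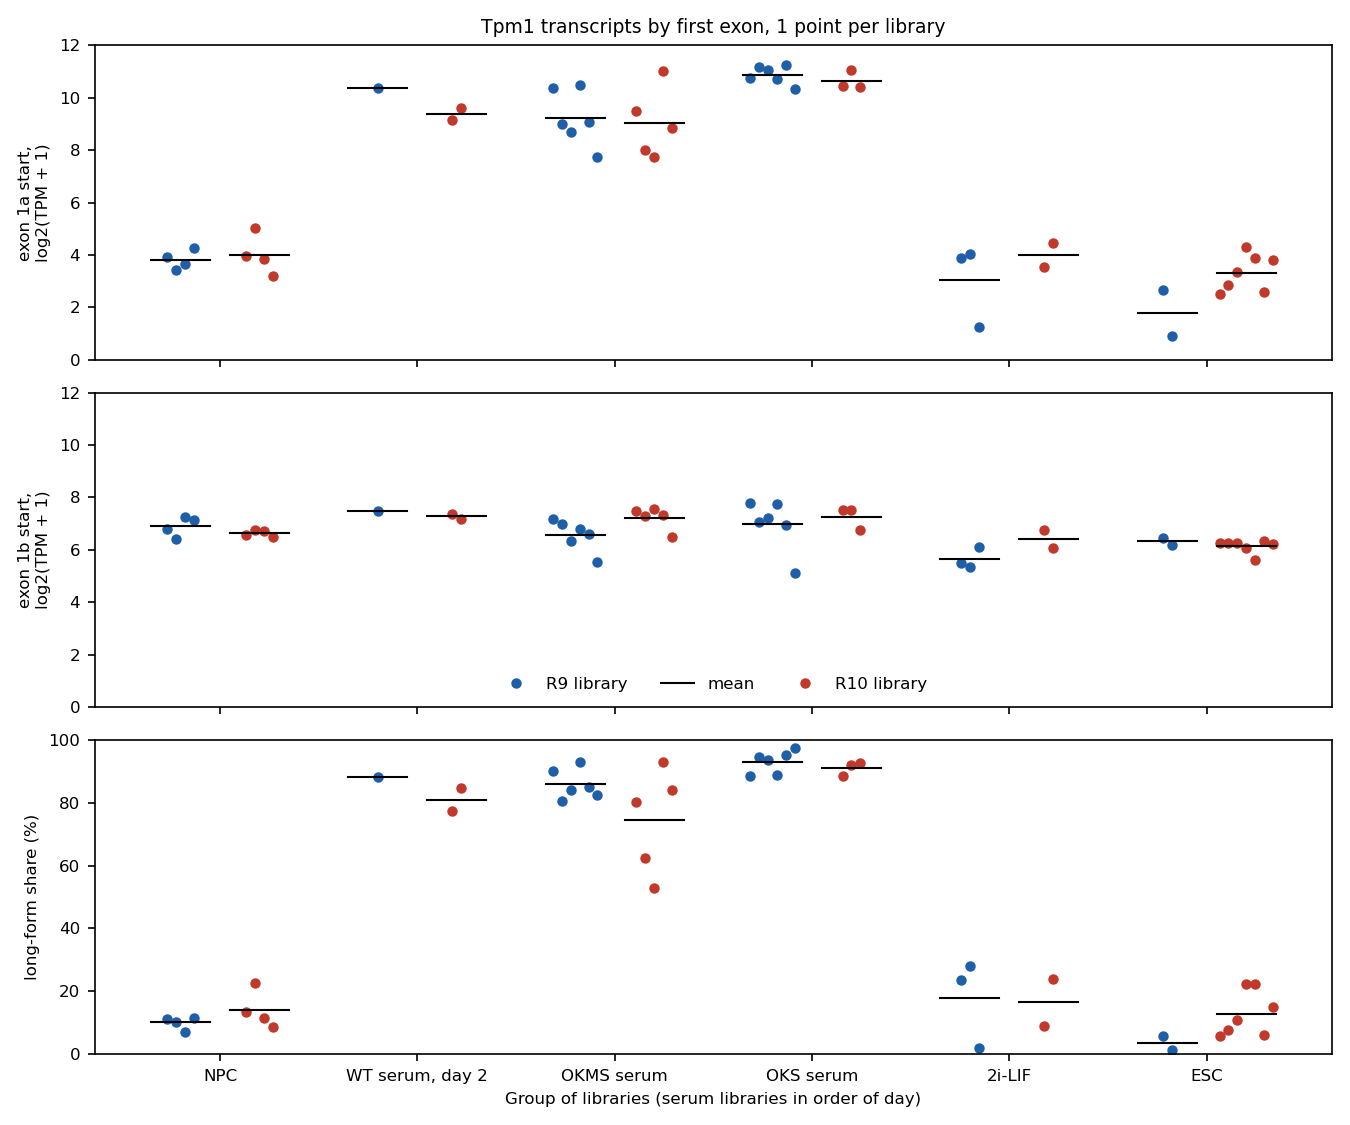
Summed log2(TPM + 1) of Tpm1 transcripts starting at exon 1a (top) and exon 1b (middle), and the exon 1a share of both (bottom, in percent), 1 point per library in blue (R9) or red (R10), with black bars for means. Exon 1a transcripts and their share are high in every serum library and low in NPC, 2i-LIF and ESC libraries, while exon 1b transcripts stay within a narrower band.

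The long-form share, the exon 1a part of all Tpm1 TPM with a known first exon, was 7.18%, 10.3%, 11.3% and 11.6% in R9 NPC libraries and 8.57% to 22.5% in R10 ones. In R9 serum it was 80.6% to 93.0% in OKMS (n = 6) and 88.6% to 97.5% in OKS (n = 6). In R10 serum OKMS gave 80.2%, 62.5%, 53.0%, 93.0% and 83.9% on days 2, 4, 6, 10 and 18 and OKS 88.5%, 92.1% and 92.6% on days 2, 6 and 18. No serum library overlapped the NPCs, and the lowest were R10 OKMS on days 4 and 6. WT serum reached 77.4% and 84.6% in R10 and 88.2% in R9, so the share was high after 2 days without the factors.

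In 2i-LIF the share was 23.5% (R9 OKMS day 14), 27.9% (R9 OKMS day 20), 1.98% (R9 OKS day 20), 9.06% (R10 OKMS day 18) and 24.0% (R10 OKS day 18), against 85.0%, 82.5%, 97.5%, 83.9% and 92.6% in the serum partners. All 5 pairs moved the same way, by -71.0 percentage points on average (SD 15.7). The exact two-sided sign-flip permutation test gave p = 0.0625, the smallest that 5 pairs allow. ESCs had 5.78% to 22.5% in R10 (mean 12.9%) and NPCs a mean of 14.0%, a difference of -1.12 points that the spread covers (exact permutation test, two-sided, p = 0.782 over 330 arrangements).

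Single transcripts were tested as well. In WT cells, 15 of 33 tested Tpm1 transcripts rose, where 15.7% of 57997 transcripts were called (7.83% higher): 14 of 18 with exon 1a, 0 of 13 with exon 1b and 1 of 2 of unresolved start. Of the 18, 14 reached the required 1 TPM in neither WT NPC library and so entered the test only through serum, which sets this count in large part, whereas none of the 13 did. In 2i-LIF, 8 of 16 fell, against 1.84% of 38362 transcripts (0.691% lower): 8 of 10 with exon 1a and 0 of 6 with exon 1b. None of the 10 reached 1 TPM in all 5 2i-LIF libraries, and 3 did in none, so all 10 entered with the help of serum, whereas 4 of the 6 reached it in all 5. The filter thus shapes these counts too. Over the R9 course 2 of 164 rose, both with exon 1a, against 0.129% of 138612 transcripts (0.0447% higher). Here too a transcript could enter the test through serum libraries alone. Between ESCs and NPCs 4 of 16 were called, 2 in each direction, against 39.8% of 58952 (23.4% higher, 16.4% lower). Transcripts of 1 gene share reads that the quantification divides, so they are not independent.

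The 6 transcripts that held at least 5% of Tpm1 on average in 1 of the chemistries were named. The complete long form, transcript 268 (exons 1a, 2b, 6b and 9d; 284 residues), rose by 5.12 ± 0.317 in WT serum (limma, adjusted p = 0.0151) and fell by 4.74 ± 0.509 in 2i-LIF (adjusted p = 0.00157). The complete short form, transcript 255 (1b, 6b and 9d; 248 residues), had differences of 0.99 ± 0.313 (adjusted p = 0.113) and -0.41 ± 0.713 (adjusted p = 0.864). Transcript 1030, a partial long form of 523 bases with exons 1a and 2b, rose by 6.504 ± 0.282 (adjusted p = 0.00956) and fell by 5.85 ± 0.641 (adjusted p = 0.00163). Both exon 1a forms were the transcripts called in the R9 course, with 7.12 (transcript 268, limma F test, adjusted p = 0.0247) and 7.30 (transcript 1030, adjusted p = 0.0179) on day 2.

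The 2-exon fragment 1099, which starts at exon 1a, rose by 4.67 ± 0.573 in WT serum (limma, adjusted p = 0.0403) and fell by 5.29 ± 0.713 in 2i-LIF (adjusted p = 0.00539). The fragment 1027 with exon 1b differed by 0.96 ± 0.220 (adjusted p = 0.0574) and -0.10 ± 0.441 (adjusted p = 0.95), and transcript 698, a short form ending in exon 9a/9b, by -0.45 ± 0.332 (adjusted p = 0.438) and 1.66 ± 0.703 (adjusted p = 0.336). Fragments of a few exons made up much of the signal, so later exons are known for part of it.

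Exon 2a, the smooth-muscle exon printed above, was a minor choice. Its share of exon 2a plus 2b was 0% in all 4 R9 NPC libraries and in all 5 2i-LIF libraries. It was 3.31% to 26.6% in R9 OKMS serum (n = 6), highest on day 10, and 7.41% to 15.6% in R9 OKS serum (n = 6). In R10 OKMS it reached 38.6% on day 10 and 33.9% on day 18, and R10 WT serum had 14.2% and 4.68%. Of the 4 R10 NPC libraries only the OKS line had any, 6.93%. Exon 2b thus kept the larger share in every library. Where the long form is low, as in NPC and 2i-LIF, few transcripts carry either exon.

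The exon 6b share was lower at the end of the course than at its start, and earlier in OKMS than in OKS. It made up 84.6% to 95.4% of exon 6a plus 6b in R9 NPCs, 85.3% (OKMS) and 92.9% (OKS) in R9 serum on day 2, and 56.2% and 43.4% on day 20. In OKS it stood at 88.9% on day 14, and in OKMS at 78.5%, 70.2%, 52.4% and 69.5% on days 4, 6, 10 and 14. In R10, OKMS had 79.3%, 62.5%, 56.8%, 67.6% and 61.0% on days 2, 4, 6, 10 and 18, and OKS 91.9%, 87.8% and 46.4% on days 2, 6 and 18. 2i-LIF libraries had 51.5% to 70.2% and R10 ESCs 53.1% to 70.1%, under the R10 NPC libraries (86.3% to 95.1%) without overlap. The part of Tpm1 TPM with exon 6 resolved was 42.7% to 68.6% in R9 NPCs and 60.6% to 66.3% in R10 NPCs. It was only 31.7% (OKMS) and 25.2% (OKS) in R10 serum on day 18, and 29.4% in R9 OKMS 2i-LIF on day 14. Exon 9d, the last exon of the smooth-muscle and fibroblast forms, held 67.5% to 97.3% of resolved last exons in R9 serum (n = 12). It held 27.8% to 62.2% in R9 2i-LIF (n = 3), where exon 9a/9b, the striated-muscle ending, took the rest. This was not particular to 2i-LIF. Exon 9d held 35.8% to 58.9% in R9 NPCs and 42.1% to 64.6% in R10 NPCs. In ESCs it held 38.7% to 41.5% (R9) and 48.5% to 67.4% (R10). In R10 the day 18 pairs ran opposite ways, with 45.6% in serum and 52.2% in 2i-LIF for OKMS and 77.1% and 35.9% for OKS, so over both chemistries the ranges overlap. These shares rest on the part of Tpm1 whose last exon was resolved, since 26.6% to 77.6% was not in serum and 2i-LIF libraries.

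The genes whose log2(CPM + 1) was most like that of 3 of the members across the 22 R9 libraries, among 11142 named genes with a mean of at least 5 CPM, were read off by Pearson's r. For Acta2 they were Anxa3 (0.98), Tagln (0.98), Podxl (0.97), Pdlim2 (0.97) and Thbs1 (0.97), with 0.94, 0.97, 0.90, 0.94 and 0.95 over the 23 R10 libraries. For Tpm1 they were Zfp36 (0.98), Klhdc8a (0.97), Thbs1 (0.97), Pdlim2 (0.96) and Fmod (0.96), with 0.96, 0.92, 0.94, 0.94 and 0.91 in R10. For Tmsb4x they included Igfbp3 (0.97), Msi2 (0.97), Itgb1 (0.96) and Pxdn (0.96), with 0.94, 0.88, 0.95 and 0.97 in R10. Among the members, Tpm4 and Tmsb4x had 0.92 and 0.90, and Tpm2 ranged from -0.41 with Tpm4 to 0.50 with Cnn1 in R9. Cnn1 was also low with Tpm4 (0.28 in R9 and 0.28 in R10) and with Tmsb4x (0.36 and 0.45). The libraries share lines, media and days, and no p-value is attached.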

How the data were processed

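Nanopore cDNA from 45 libraries (22 R9, 23 R10) was analysed from gene-level CPM and transcript-level TPM that the authors deposited. Alignment with minimap2 2.24-r1122 to mm10 is named in the submitters' processing notes; whether counting used strand is not given in the sources used here. Other values used from the deposited files were transcript lengths, open reading frames and exon positions (other units), per the file headers. A total of 13 columns of the gene table that matched no sample were not used. The members and gene lists were chosen with earlier results of these data known. Libraries held 447990 to 4236442 reads, which limits the precision of low values, and intervals and floors (3 reads) cover counting error only.

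Differences were tested with limma 3.58.1 (R 4.3.3), two-sided, on log2(CPM + 1) or log2(TPM + 1), so fold changes of low genes are understated. A gene entered a test with at least 1 CPM in as many libraries as the smaller group holds, and transcripts likewise with 1 TPM. Called means a Benjamini-Hochberg adjusted p under 0.05 over all genes tested and a log2 difference of at least 1. The time courses used a moderated F test with the system as a term, so both systems stand in for replicates of a day. OKMS against OKS used the day, and 2i-LIF against serum the pair, as a block. CPM steps gave whole reads for 100.0% of values above 0 (within 0.02 of a read), and edgeR 4.0.16 and DESeq2 1.42.0 were run on these recovered reads as alternatives; edgeR called 4573 genes in the R9 course, where limma called 2078. Long-form shares were compared by exact permutation. The scripts were tested on simulated data.

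Named genes were the 10 members in every comparison, Tpm1 transcripts with at least 5% of its TPM, from each further list at most 4 with the largest called difference in the R9 course and in 2i-LIF, the regulators Srf, Mrtfa and Mrtfb, and the 5 genes most alike for 3 members; some genes that this rule names are not reported here. Myocd, Myh11 and some other listed genes were not analysed here. Genes named beyond the rule (Smtn, Synpo2, Actb and single list genes in WT serum) were chosen after their values were seen. Sequences come from RefSeq promoters (GRCm38.p6) and GENCODE M21 exons. Other alternatives were another pseudocount, other filters, quantile normalization, median centring and the omission of libraries, days or pairs.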

Additional observations from a re-analysis of the deposited data

Results flagged for a closer look

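In groups of 4 to 7 libraries, 3 of 33 groups (the 10 genes and the Tpm1 long-form share) held a library far from the others by Dixon's criterion, which chance gives in about 1 of 20 groups. Actg2 was 0.387 CPM (1 read) in the second R1-Clone3 library of the R10 ESCs and 0 in the other 6. Tpm1 was lowest, at 70.6 CPM, in the unnumbered R1 library of the R10 ESCs, the others standing at 85.1 to 90.6 CPM. Tpm2 was 2.68 CPM (2 reads) in WT replicate 1 of the R9 NPCs and 0 in the other 3. For Actg2 and Tpm2, any read in a single library among libraries at 0 meets the criterion, so the rate of 1 of 20 does not apply to them.

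Rows of the gene table outside the 10 genes also held reads next to them. A row joining Rab8a and Tpm4 had 13.4 CPM (6 reads) in R9 OKS serum on day 10, against 2.69 to 5.81 CPM in R9 NPCs, and 14.1 CPM (8 reads) in R10 OKMS 2i-LIF on day 18, against 0.584 to 2.58 CPM in R10 NPCs. A row antisense to Tmsb4x had 26.8 CPM (20 reads) in R9 OKS serum on day 6, against 1.69 to 9.42 CPM in R9 NPCs, and 4.48 CPM (12 reads) in R10 OKS serum on day 2, against 0.318 to 2.34 CPM in R10 NPCs. A row antisense to Tpm4 had 8.03 CPM (6 reads) in R9 OKS serum on day 6 and 0 in R9 NPCs. Since the use of strand in counting is not stated, reads of a gene and of its antisense row may not be separated.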

How the results depend on the processing

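Of 878 alternative values for single members, 771 kept their side of the threshold, 75 lost the call and 32 gained it. No member called in the main test changed direction. Members not called there sometimes did: Tpm4 in WT serum ranged from -1.28 to 0.83, and Myl9 with the factors on day 2 from -0.67 to 1.42. Members called over the R9 course were 10 with edgeR. Over the R10 course they were 0 with pseudocount 0.25, without a filter or without day 18, 7 with median centring or on days with both systems, and 8 with edgeR or DESeq2. In WT serum they were 0 to 3 with 1 library left out and 3 with R9 libraries; for the factors on day 2, 0 to 4 with 1 library left out, 0 with R9 libraries and 2 with both chemistries. For OKMS against OKS they were 0 without the day block or in R10, for 2i-LIF 5 in the R10 pairs, and for ESCs 2 with the unnumbered R1 library alone. Tpm1 transcripts called went from 2 to 1 (pseudocount 0.25) or 0 (R10) in the course, from 8 to 4 without a filter in 2i-LIF, from 15 to 3 without a filter or 9 at 5 TPM in WT serum, and from 4 to 1 at 5 TPM in ESCs. The ESC minus NPC long-form share changed sign without 1 library (0.0593, 0.0317 or 1.72 points, range -2.92 to 1.72), and the 2i-LIF share stayed between -75.1 and -59.8. The causes were not tested.

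Counts over all genes moved as well. The R9 course had 926 without day 2 and 370 without day 20. The R10 course's 371 became 1, 0, 614, 1035, 2322, 1604, 0 and 1455 with pseudocount 0.25, no filter, 5 CPM, median centring, edgeR, DESeq2, no day 18 and days with both systems. WT serum's 3940 became 0 to 1190 with 1 library left out and 1562 in R9. The factors' 114 became 74, 181, 29, 399, 334, 482, 0 and 232 with pseudocount 0.25, 5 CPM, quantile normalization, median centring, edgeR, DESeq2, R9 libraries and both chemistries, and 0 to 500 with 1 library left out. OKMS against OKS had 1687 without day 6, 2 without the day block and 0 in R10, from 2567; 2i-LIF had 1166 in R9 pairs and 188 in R10 pairs, from 1832. Median centring moved the all-gene median from 0.63 to -0.45 in the R9 course, and the higher share of calls for the factors from 96.5% to 72.4% (80.9% with DESeq2).

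WT libraries share replicate numbers. With the replicate block, 6 members, 5605 genes and 19 Tpm1 transcripts were called; the same-numbered libraries' deviations had a correlation of 0.474 over 14688 genes, with 2 pairs.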
